A study of Mus musculus with 6 samples.

Results

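Nucleotide excision repair removes bulky lesions that distort the double helix, among them the adducts that 4NQO (4-nitroquinoline 1-oxide), a carcinogen that gives rise to squamous tumours of the mouth, forms on purines. Damage is found either anywhere in the genome by XPC and the DDB complex or at a stalled RNA polymerase II by the Cockayne syndrome proteins. TFIIH then opens the helix, XPA and RPA hold the opened strands, the nucleases XPG and ERCC1-XPF cut on either side of the lesion, and the replication clamp, DNA polymerases and a ligase refill the gap. The 35 genes described here encode these proteins, were chosen by symbol from their place in this pathway, and are 35 of the 35275 genes in the deposited table. Each symbol matched 1 row.

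RNA of whole mouse tongues was sequenced in bulk. The groups were 3 libraries from Aim2 KO mice, which lack the cytosolic DNA sensor Aim2, and 3 libraries from wild type mice, each numbered 1 to 3. Every mouse in both groups had 4NQO in its drinking water at 100 µg/ml for 20 weeks, so all values describe carcinogen-exposed tongue. The labels give no strain, sex, age or knockout allele. They leave unsaid whether libraries of a genotype came from separate mice, so p-values and intervals speak of the spread among these libraries alone.

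Reads recovered from the FPKM values (reads scaled by gene length and library total) summed to 21959204 to 25369400 per library. Aim2 had 3, 4 and 10 reads in the Aim2 KO libraries, against 14, 25 and 30 reads in the wild type libraries (exact permutation test of FPKM, two-sided, p = 0.1, the smallest that 3 against 3 allows). Of the marker lists, 14 of 15 skeletal muscle genes (Acta1 and Tnnt3 highest) were above 0 FPKM in all 6 libraries. So were 12 of 12 suprabasal keratinocyte genes (Krt13 and Krt6b highest), whose summed level was 37044 to 49077 FPKM. Aim2 KO replicate 1 stood apart in composition, with a summed skeletal muscle level of 10770 FPKM where the other 5 libraries had 17660 to 21579 FPKM, and results are therefore also given without it. The summed level of 14 leukocyte genes was 207 to 299.7 FPKM in Aim2 KO and 119.8 to 133 FPKM in wild type.

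No gene of the pathway passed the test between the genotypes. Among the 35 members, all of which reached the expression filter of a mean of 1 FPKM, 0 passed at a Benjamini-Hochberg adjusted p of 0.05 in limma, and each had an adjusted p of 0.9998. Over the 12144 genes tested, 0.00823% were called higher in Aim2 KO (1 gene, not a member) and 0% were called lower. At an unadjusted p under 0.05 there was 1 member, Cetn2, and 2.50% of all genes tested. Limma's voom on the recovered reads gave 0 members adjusted and 0 unadjusted, where 0.00823% and 2.27% of all genes tested passed. Without Aim2 KO replicate 1 there were again 0 members past the threshold and 1 at an unadjusted p under 0.05 in limma, where 0.115% and 6.90% of the 12209 genes then tested passed.

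Within the spread among these libraries, the size of any difference was bounded. All 35 intervals for the log2 difference (Aim2 KO minus wild type in log2(FPKM + 1) units, 95%, limma, not adjusted for the number of genes) lay between -0.54 for Rpa3 and 0.58 for Cetn2, so each excluded a change of 2-fold in either direction on that scale. Since adding 1 FPKM understates the change of low genes, the intervals were also taken with a pseudocount of 0.1, where they lay between -0.67 for Pole and 0.63 for Uvssa, and by voom, where they lay between -0.69 for Rpa3 and 0.65 for Rfc3. In both, all 35 again excluded 2-fold. With 1 FPKM added, 95.4% of the other 10879 genes tested at levels between the lowest and the highest member had an interval excluding 2-fold. That share was not taken with 0.1 FPKM added or by voom.

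The median log2 difference of the members was 0.028, and that of all genes tested was 0.022. On FPKM as deposited 23 members had a difference above 0 and 12 below it (65.7% above), beside 57.2% of all genes tested above 0. After median-of-ratios scaling, which moved the median of all genes tested as well, 17 members and 48.0% of all genes tested lay above 0. The largest differences were 0.31 for Cetn2 upwards and -0.18 for Rpa3 downwards. The Rpa3 value stayed below 0 whichever library was left out, and its size changed with the library. It was -0.14, -0.27 and -0.12 without Aim2 KO replicates 1, 2 and 3. Without wild type replicates 1, 2 and 3 it was -0.047, -0.17 and -0.31. Pold1, at -0.12 with all libraries, was lower than Rpa3 without Aim2 KO replicate 3 (-0.24) and without wild type replicate 1 (-0.21).

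**Figure D1:**
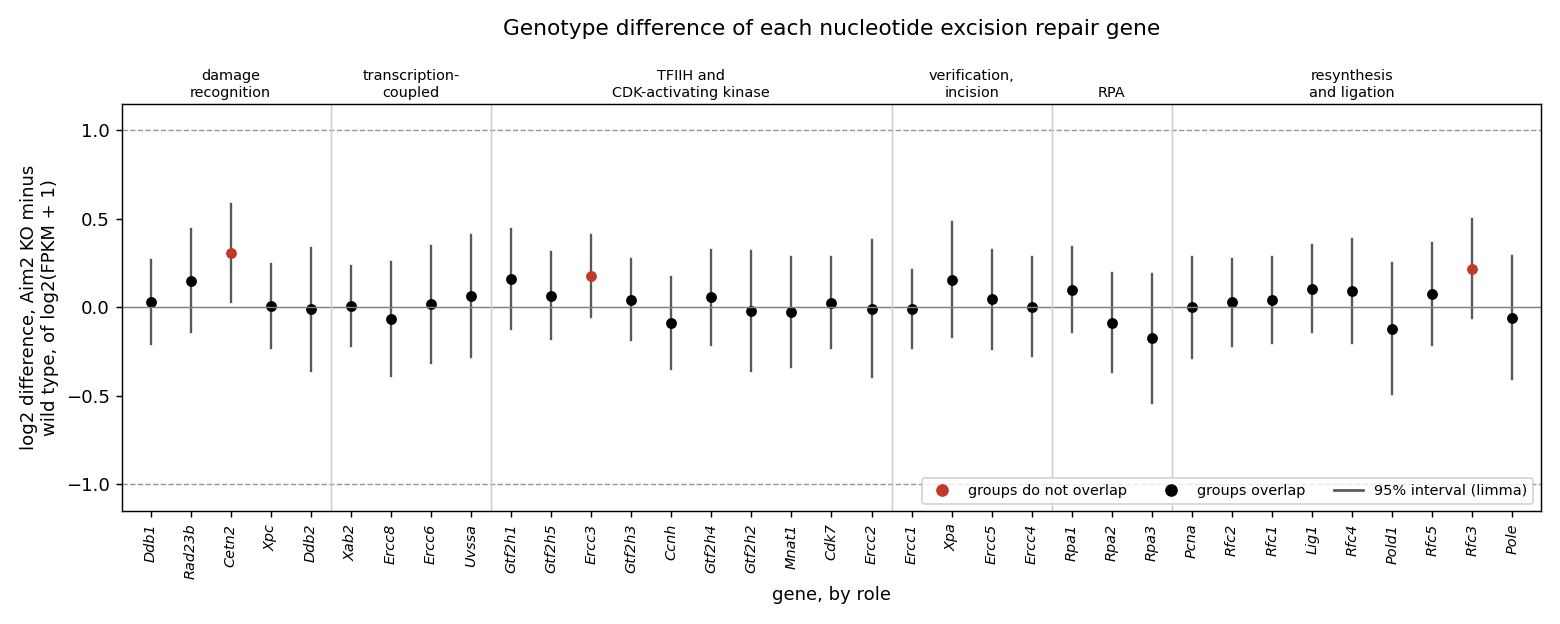
Log2 difference (vertical axis, Aim2 KO minus wild type, of log2(FPKM + 1)) of the 35 genes by role, with the 95% interval from limma as a bar and dashed lines at a 2-fold change. All 35 bars lie inside the dashed lines, and the bar of Cetn2 is the one of the 35 that does not cross 0.

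Levels within the pathway covered a wide range in both genotypes. By mean FPKM over the 6 libraries, 3 members lay above 20 FPKM (Ddb1 at 74.4, Rad23b at 67.4 and Pcna at 51.4 FPKM), 11 between 10 and 20 FPKM, 17 between 2 and 10 FPKM, and 4 under 2 FPKM (Ercc6 at 1.93, Uvssa at 1.59, Pole at 1.32 and Ddb2 at 1.22 FPKM). These levels per kilobase rest on the gene length in the deposited table. That length exceeded the longest protein-coding transcript of GENCODE M21 in 14 members, by over 1.5 times in Cdk7 (7595 against 1988 bases), Rfc3 (2726 against 1317 bases) and Xab2 (4409 against 2677 bases), and in Rfc2 it was shorter (1518 against 4995 bases). Comparisons between genes carry that uncertainty, and comparisons between genotypes carry it through the 1 FPKM added before the log. With 0.1 FPKM added instead, the log2 difference of Rfc3 was 0.27, where it was 0.22 with 1 FPKM. In bulk tissue, fewer cells of a type and less RNA per cell cannot be told apart.

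**Figure D2:**
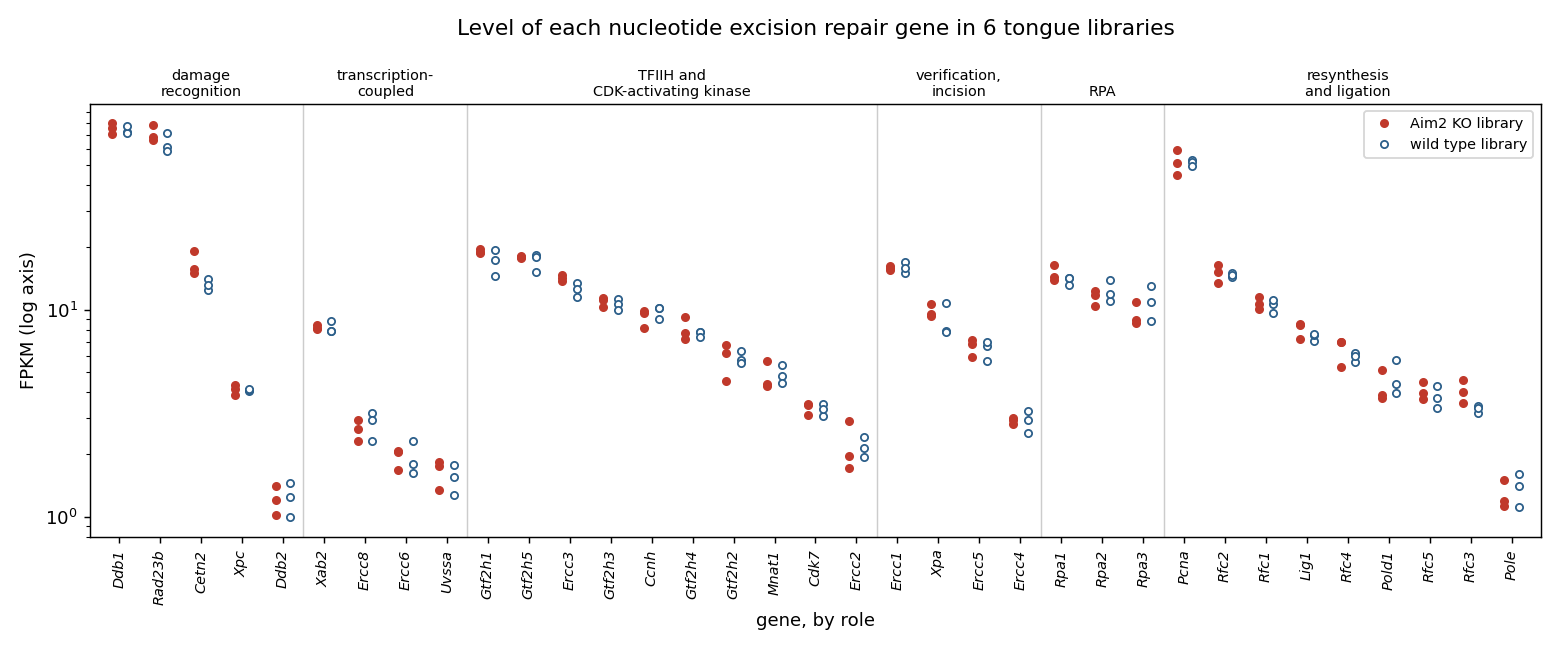
FPKM (vertical, log axis) of the 35 genes by role and falling mean level, with 1 filled point per Aim2 KO library and 1 open point per wild type library. The points of both genotypes overlap in range for all genes except Cetn2, Ercc3 and Rfc3, and mean levels run from 1.22 FPKM for Ddb2 to 74.4 FPKM for Ddb1.

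Damage recognition across the genome was represented by 5 genes, and their transcripts were present in very unequal amounts. Xpc, which encodes the protein that senses the distorted helix, had 4.16, 4.31 and 3.87 FPKM in the Aim2 KO libraries, against 4.04, 4.09 and 4.12 FPKM in the wild type libraries. The groups overlapped (log2 difference 0.0074, interval -0.23 to 0.25). The coefficient of variation of Xpc between libraries of a genotype, 3.91%, was the lowest of the members. Its fewest reads in a library, 377, alone carry a counting error of 5.15%, so this rank is not read as a trait of the gene. Rad23b, which stabilises XPC, had 78.5, 66.2 and 68.0 FPKM in the Aim2 KO libraries, against 61.3, 58.4 and 71.7 FPKM in the wild type libraries. Its highest value was in Aim2 KO replicate 1, and wild type replicate 3 lay above the other two Aim2 KO libraries. The ratio of Rad23b to Xpc was 17.3 ± 1.77 in Aim2 KO and 15.6 ± 1.60 in wild type (SD, n = 3 each).

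Ddb1 encodes the adaptor of the cullin 4 ubiquitin ligases that also forms the UV-damage sensor. It had 79.5, 70.4 and 75.6 FPKM in the Aim2 KO libraries, against 71.9, 71.6 and 77.1 FPKM in the wild type libraries. Its mean level was the highest of the members. Ddb2, the subunit of that sensor that contacts the lesion and a p53 target in human cells, had 1.02, 1.20 and 1.41 FPKM in the Aim2 KO libraries, against 1.24, 1.45 and 0.995 FPKM in the wild type libraries. Both genes overlapped between the genotypes. Ddb2 rested on 53 to 81 reads, the fewest of any member, and 53 reads alone carry a counting error of 13.7%. It also shares 652 exonic bases with Acp2 on the opposite strand, and whether reads were assigned by strand is not given in the sources used here. The ratio of Ddb1 to Ddb2 ran from 49.3 to 77.6 over the 6 libraries.

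Cetn2, which encodes centrin 2, the small calcium-binding partner of XPC that also sits in centrioles, was the member with the largest difference (ENSMUSG00000031347; chromosome X, 72913532 to 72918411, minus strand). It had 15.7, 15.1 and 19.1 FPKM in the Aim2 KO libraries, against 12.5, 14.1 and 13.1 FPKM in the wild type libraries. The groups did not overlap, and Aim2 KO replicate 3 was the highest library. The means were 16.6 ± 2.18 FPKM in Aim2 KO against 13.2 ± 0.804 FPKM in wild type (SD, n = 3 each), a log2 difference of 0.31 (SE 0.12, interval 0.030 to 0.58, limma unadjusted p = 0.0338, adjusted p = 0.9998). Without Aim2 KO replicate 3 the log2 difference was 0.21 (limma unadjusted p = 0.126), and without Aim2 KO replicate 1 it was 0.34 (limma unadjusted p = 0.0281, adjusted p = 0.603). Without wild type replicate 1 it was 0.27 (limma unadjusted p = 0.108). By voom it was 0.32 (interval -0.0026 to 0.65, voom unadjusted p = 0.0515). The unadjusted p of Cetn2 was under 0.05 in 14 of the 18 alternatives listed at the end. The leukocyte sum was also highest in Aim2 KO replicate 3, at 299.7 FPKM, and its part in the Cetn2 value was not tested.

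The promoter of Cetn2 is shown because the groups did not overlap in the gene beside it either. Nsdhl, which encodes a sterol dehydrogenase of cholesterol synthesis and was picked after its values were seen, begins 145 bases from Cetn2 on the opposite strand in the deposited coordinates (ENSMUSG00000031349; chromosome X, 72918557 to 72958514, plus strand), so that both genes start inside 1 short stretch and run apart. The sequence is that of RefSeq on GRCm38.p6, chrX:72918295-72918594, minus strand. It runs from 250 bases before to 50 bases after the RefSeq start of Cetn2. That start lies downstream of the one in the deposited coordinates, 72918411, from which the 145 bases are counted. The word CCAAT (the core of NF-Y sites), searched on both strands, is in capitals.
Cetn2: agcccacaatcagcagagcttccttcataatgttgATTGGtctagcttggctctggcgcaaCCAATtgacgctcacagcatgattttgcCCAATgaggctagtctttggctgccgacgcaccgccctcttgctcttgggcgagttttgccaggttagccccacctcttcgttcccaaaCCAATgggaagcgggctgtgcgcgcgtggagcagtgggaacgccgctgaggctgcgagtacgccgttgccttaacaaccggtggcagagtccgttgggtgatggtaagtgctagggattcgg
The word occurs 4 times, 3 times as CCAAT and 1 time as its complement. At least 1 CCAAT was found in 37.4% of all 32851 promoters of the table and in 46.9% of the 32 promoters of members, and a word match is not a measured binding site. The share of promoters with 4 was not taken. The other word types searched, given with the Rfc3 promoter below, were not found in that of Cetn2.

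Nsdhl had 13.6, 13.3 and 11.4 FPKM in the Aim2 KO libraries, against 11.2, 9.81 and 9.75 FPKM in the wild type libraries. The lowest Aim2 KO library lay above the highest wild type library (means 12.7 ± 1.16 FPKM in Aim2 KO against 10.2 ± 0.803 FPKM in wild type (SD, n = 3 each), log2 difference 0.29, interval 0.033 to 0.55, limma unadjusted p = 0.0319, adjusted p = 0.9998). The libraries differed in order: Nsdhl was highest in Aim2 KO replicate 1 and lowest of its genotype in Aim2 KO replicate 3, where Cetn2 was highest. Neither gene passed the threshold.

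**Figure D3:**
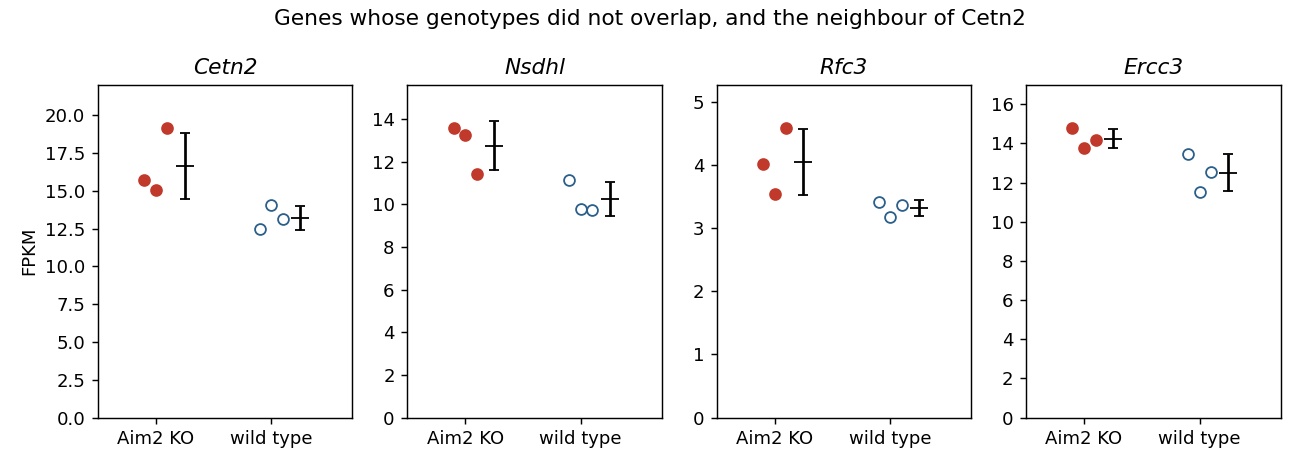
FPKM (vertical, from 0) of Cetn2, its neighbour Nsdhl, Rfc3 and Ercc3 in the Aim2 KO (filled) and wild type (open) libraries, with the mean and SD of 3 libraries beside each group. In all 4 panels the lowest Aim2 KO point lies above the highest wild type point, by 0.12 FPKM in Rfc3.

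Transcription-coupled recognition was represented by 4 genes. Ercc6, which encodes the remodeller CSB that binds the stalled polymerase, had 1.69, 2.07 and 2.06 FPKM in the Aim2 KO libraries, against 1.63, 1.81 and 2.31 FPKM in the wild type libraries. Ercc8, which encodes CSA, the substrate receptor of a DDB1-containing ubiquitin ligase, had 2.93, 2.31 and 2.66 FPKM in the Aim2 KO libraries, against 3.18, 2.94 and 2.33 FPKM in the wild type libraries. Wild type libraries held both the lowest and the highest Ercc6 value, and Ercc8 was lowest in Aim2 KO replicate 2 and wild type replicate 3. Uvssa, the factor that brings TFIIH to the polymerase, had 1.35, 1.84 and 1.77 FPKM in the Aim2 KO libraries, against 1.27, 1.56 and 1.78 FPKM in the wild type libraries. Xab2, an XPA-binding protein that also takes part in splicing, had 8.10, 8.46 and 8.13 FPKM in the Aim2 KO libraries, against 7.90, 7.88 and 8.83 FPKM in the wild type libraries. Xab2 was present at a higher level than the other three, and all 4 genes overlapped between genotypes, with intervals that together ran from -0.39 to 0.41. Xab2 shares 570 exonic bases with Camsap3 on the opposite strand.

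TFIIH holds 7 core subunits and the 3 subunits of the CDK-activating kinase, which serves transcription as well as repair. Ercc3, which encodes the XPB translocase that opens the helix, had 14.8, 13.8 and 14.2 FPKM in the Aim2 KO libraries, against 13.4, 11.5 and 12.5 FPKM in the wild type libraries (ENSMUSG00000024382; chromosome 18, 32240300 to 32270151, plus strand). The lowest Aim2 KO library lay above the highest wild type library (means 14.3 ± 0.498 FPKM in Aim2 KO against 12.5 ± 0.952 FPKM in wild type (SD, n = 3 each), log2 difference 0.18, SE 0.10, interval -0.054 to 0.41, limma unadjusted p = 0.114, adjusted p = 0.9998). Ercc2, which encodes the XPD helicase that checks the opened strand, had 1.97, 1.71 and 2.89 FPKM in the Aim2 KO libraries, against 2.14, 2.44 and 1.95 FPKM in the wild type libraries. Its values overlapped and varied most of all members, with a coefficient of variation of 21.5% and 153 to 227 reads per library. Ercc2 also shares 744 exonic bases with Klc3 on the opposite strand, which had a mean of 29.7 FPKM. The ratio of Ercc3 to Ercc2 was 6.82 ± 1.68 in Aim2 KO and 5.82 ± 0.946 in wild type (SD, n = 3 each).

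The non-helicase core subunits lay between the helicases or above them. Gtf2h1, which contacts XPC and XPG, had 19.0, 19.7 and 18.8 FPKM in the Aim2 KO libraries, against 17.4, 14.5 and 19.5 FPKM in the wild type libraries. Wild type replicate 2 was the lowest library, and the groups overlapped through wild type replicate 3. Gtf2h5, the smallest subunit, whose human counterpart is mutated in a form of trichothiodystrophy, had 17.9, 18.2 and 17.8 FPKM in the Aim2 KO libraries, against 18.4, 17.9 and 15.2 FPKM in the wild type libraries. Gtf2h3 had 11.4, 11.1 and 10.3 FPKM in the Aim2 KO libraries, against 11.2, 10.6 and 9.93 FPKM in the wild type libraries. Gtf2h4, the partner that drives the XPB motor, had 7.24, 7.70 and 9.28 FPKM in the Aim2 KO libraries, against 7.83, 7.83 and 7.40 FPKM in the wild type libraries, and Gtf2h2, which activates XPD, had 4.55, 6.73 and 6.19 FPKM in the Aim2 KO libraries, against 5.71, 6.35 and 5.51 FPKM in the wild type libraries. In both of these genes the highest and the lowest library belonged to the knockout, the lowest being Aim2 KO replicate 1 each time.

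Of the kinase subunits, Cdk7, the catalytic one, had 3.11, 3.50 and 3.48 FPKM in the Aim2 KO libraries, against 3.49, 3.06 and 3.31 FPKM in the wild type libraries. Ccnh, its cyclin, had 8.16, 9.61 and 9.86 FPKM in the Aim2 KO libraries, against 10.2, 10.2 and 9.04 FPKM in the wild type libraries. Mnat1, the assembly factor, had 4.27, 5.65 and 4.40 FPKM in the Aim2 KO libraries, against 5.41, 4.79 and 4.41 FPKM in the wild type libraries. The 3 genes overlapped between genotypes, and the ratio of Ccnh to Mnat1 was 1.95 ± 0.275 in Aim2 KO and 2.02 ± 0.122 in wild type (SD, n = 3 each). Of the 10 TFIIH genes, 6 had a log2 difference above 0 and 4 below it, with a median of 0.035, beside 0.022 for all genes tested.

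Verification and incision took in 4 genes. Xpa, the scaffold that binds the opened junction, had 9.55, 10.7 and 9.36 FPKM in the Aim2 KO libraries, against 10.8, 7.90 and 7.78 FPKM in the wild type libraries. Wild type replicate 1 was the highest of all 6 and the other two wild type libraries were the lowest, so the groups overlapped (log2 difference 0.16, interval -0.17 to 0.48). Ercc1 and Ercc4 encode the subunits of the ERCC1-XPF nuclease, which cuts on the 5′ side of the lesion. Ercc1 had 15.5, 15.8 and 16.3 FPKM in the Aim2 KO libraries, against 17.0, 15.1 and 16.0 FPKM in the wild type libraries, and Ercc4 had 2.92, 2.82 and 3.01 FPKM in the Aim2 KO libraries, against 2.55, 2.94 and 3.26 FPKM in the wild type libraries. The ratio of Ercc1 to Ercc4 was 5.44 ± 0.165 in Aim2 KO and 5.57 ± 0.970 in wild type (SD, n = 3 each), so Ercc1 had the higher level per kilobase in both genotypes. Ercc1 shares 106 exonic bases with Cd3eap (mean 17.7 FPKM) on the opposite strand, and Xpa shares 77 with Ncbp1 (mean 24.0 FPKM). Ercc5, which encodes XPG, the nuclease of the 3′ side, had 5.90, 6.85 and 7.18 FPKM in the Aim2 KO libraries, against 6.67, 5.63 and 6.96 FPKM in the wild type libraries. It is the only member on the chromosome of Aim2 (chromosome 1), at a distance of 129 Mb, and its groups overlapped. Ercc1 and Ercc2 lie 25486 bases apart on chromosome 7 and had log2 differences of -0.012 and -0.0079.

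RPA, the single-strand binding protein that protects the undamaged strand, has 3 subunits. Rpa1, the largest, had 14.0, 14.4 and 16.5 FPKM in the Aim2 KO libraries, against 13.2, 14.2 and 14.2 FPKM in the wild type libraries. Rpa2 had 12.3, 10.4 and 11.7 FPKM in the Aim2 KO libraries, against 11.0, 13.9 and 11.9 FPKM in the wild type libraries, and Rpa3 had 8.91, 10.9 and 8.61 FPKM in the Aim2 KO libraries, against 13.1, 10.9 and 8.79 FPKM in the wild type libraries. The direction was not shared: the log2 difference was 0.099 for Rpa1, -0.086 for Rpa2 and -0.18 for Rpa3, each with overlapping groups. Rpa3 (interval -0.54 to 0.19) was highest in wild type replicate 1, and its short gene model of 682 bases gave 129 to 219 reads per library.

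The genes of resynthesis and ligation also serve DNA replication. Pcna, the sliding clamp, had 58.8, 45.0 and 50.9 FPKM in the Aim2 KO libraries, against 52.8, 51.8 and 49.4 FPKM in the wild type libraries. The Aim2 KO libraries held both the highest and the lowest value, and the means were 51.6 ± 6.96 FPKM in Aim2 KO against 51.3 ± 1.77 FPKM in wild type (SD, n = 3 each). The summed level of 16 proliferation genes (Top2a and Mcm7 highest) was 164.8, 126 and 152.9 FPKM in the Aim2 KO libraries, against 119.8, 120.8 and 149.5 FPKM in the wild type libraries, and Aim2 KO replicate 1 was the highest library in both. The orders differed otherwise: Pcna was lowest in Aim2 KO replicate 2, and the sum was lowest in wild type replicate 1. The part of proliferation in the Pcna values was not tested. Lig1, the ligase that seals the patch in dividing cells, had 8.47, 7.24 and 8.51 FPKM in the Aim2 KO libraries, against 7.06, 7.53 and 7.66 FPKM in the wild type libraries. Pold1, the catalytic subunit of DNA polymerase delta, had 3.73, 3.86 and 5.09 FPKM in the Aim2 KO libraries, against 3.98, 5.73 and 4.36 FPKM in the wild type libraries, and Pole, that of polymerase epsilon, had 1.13, 1.19 and 1.51 FPKM in the Aim2 KO libraries, against 1.11, 1.40 and 1.60 FPKM in the wild type libraries. All 3 overlapped between the genotypes, and wild type replicate 2 held the highest Pold1 value.

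RFC loads the clamp and has 1 large and 4 small subunits. Rfc1, the large one, had 10.1, 10.7 and 11.6 FPKM in the Aim2 KO libraries, against 9.66, 10.6 and 11.1 FPKM in the wild type libraries. Rfc2 had 13.4, 15.3 and 16.4 FPKM in the Aim2 KO libraries, against 14.3, 15.1 and 14.7 FPKM in the wild type libraries, Rfc4 had 6.97, 5.29 and 6.98 FPKM in the Aim2 KO libraries, against 5.60, 6.15 and 5.98 FPKM in the wild type libraries, and Rfc5 had 4.46, 3.72 and 3.95 FPKM in the Aim2 KO libraries, against 4.27, 3.75 and 3.36 FPKM in the wild type libraries. These 4 subunits overlapped between genotypes, with log2 differences of 0.039, 0.028, 0.093 and 0.075. Rfc2, Rfc4 and Rfc5 share exonic bases with opposite-strand neighbours (952 with Lat2, 194 with Eif4a2 and 499 with Wsb2). The mean levels of these neighbours were 1.71 FPKM for Lat2, 65.7 FPKM for Eif4a2 and 24.5 FPKM for Wsb2. Rfc3 alone of the subunits had groups that did not overlap, at 4.02, 3.54 and 4.58 FPKM in the Aim2 KO libraries, against 3.42, 3.17 and 3.37 FPKM in the wild type libraries (ENSMUSG00000033970; chromosome 5, 151642756 to 151651242, minus strand). The gap between the lowest Aim2 KO and the highest wild type library was 0.12 FPKM (means 4.04 ± 0.521 FPKM in Aim2 KO against 3.32 ± 0.129 FPKM in wild type (SD, n = 3 each), log2 difference 0.22, SE 0.12, interval -0.059 to 0.50, limma unadjusted p = 0.107, adjusted p = 0.9998). Each library gave 210 to 274 reads.

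The promoter of Rfc3 is shown because its groups did not overlap and because, of the 32 member promoters in the table, it is the one with words of all 3 types searched. It is the RefSeq sequence on GRCm38.p6, chr5:151651159-151651458, minus strand, from 250 bases before to 50 bases after the start, with words of 3 types searched on both strands in capitals: TTTCCCGC, TTTCGCGC, TTTGCCGC and TTTGGCGC (E2F type), CCGGAAG (ETS type) and CCAAT (NF-Y type).
Rfc3: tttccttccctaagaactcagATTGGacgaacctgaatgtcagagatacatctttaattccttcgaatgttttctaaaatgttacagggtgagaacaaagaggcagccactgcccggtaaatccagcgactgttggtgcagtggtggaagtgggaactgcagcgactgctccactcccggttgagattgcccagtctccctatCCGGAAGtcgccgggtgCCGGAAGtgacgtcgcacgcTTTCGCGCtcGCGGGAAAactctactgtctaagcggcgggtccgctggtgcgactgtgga
From the first base on, it holds 1 complemented CCAAT at bases 22 to 26, CCGGAAG at bases 204 to 210 and 221 to 227, TTTCGCGC at bases 241 to 248 and the complement of TTTCCCGC at bases 251 to 258. An E2F-type word was found in 3 of 9 promoters of resynthesis genes (those of Rfc3, Pold1 and 1 of the 3 starts of Lig1), in 0 of 23 promoters of the other roles and in 2.26% of all 32851 promoters. CCGGAAG was found in 31.2% of the 32 member promoters and in 8.86% of all, and the members' promoters had a median of 23 CG dinucleotides where all promoters had 7, so their base composition differed as well. These counts describe letters in a window and were not tested against expression. Promoters of 29 of the 35 members were in the table.

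The groups failed to overlap for 3 members, all higher in Aim2 KO (8.57%), and for 0 members lower in Aim2 KO. Of all genes tested, 4.98% were higher without overlap and 1.48% were lower without overlap, where 1 member is 2.86% of the list, and the count is not read as a result about the members. After median-of-ratios scaling 1 of the 3, Cetn2, still did not overlap, where 3.52% of all genes tested were higher without overlap. Rescaled to TPM, all 3 were as before (4.65% of all genes tested), and without Aim2 KO replicate 1 the count was 5 (17.7% of all genes tested).

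Across libraries the members varied little. The mean log2 level of the 35 genes was 3.13, 3.14 and 3.22 in the Aim2 KO libraries, against 3.13, 3.13 and 3.12 in the wild type libraries. Aim2 KO replicate 3 was the highest library for 10 members (21.6% of all genes tested) and the lowest for 2 (7.41% of all genes tested). Its median deviation from the 6-library mean was 0.053 for the members and 0.056 for all genes tested, so all genes tested lay about as far above their mean in that library as the members did. Aim2 KO replicate 1, the library with the least muscle RNA, was the lowest library for 6 members (34.3% of all genes tested were lowest there). It was the highest for 6 members (21.9% of all genes tested). The median coefficient of variation between libraries of a genotype was 10.2% for the members and 13.7% for the other 10879 genes tested in the same range of levels, given as a description only.

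**Figure D4:**
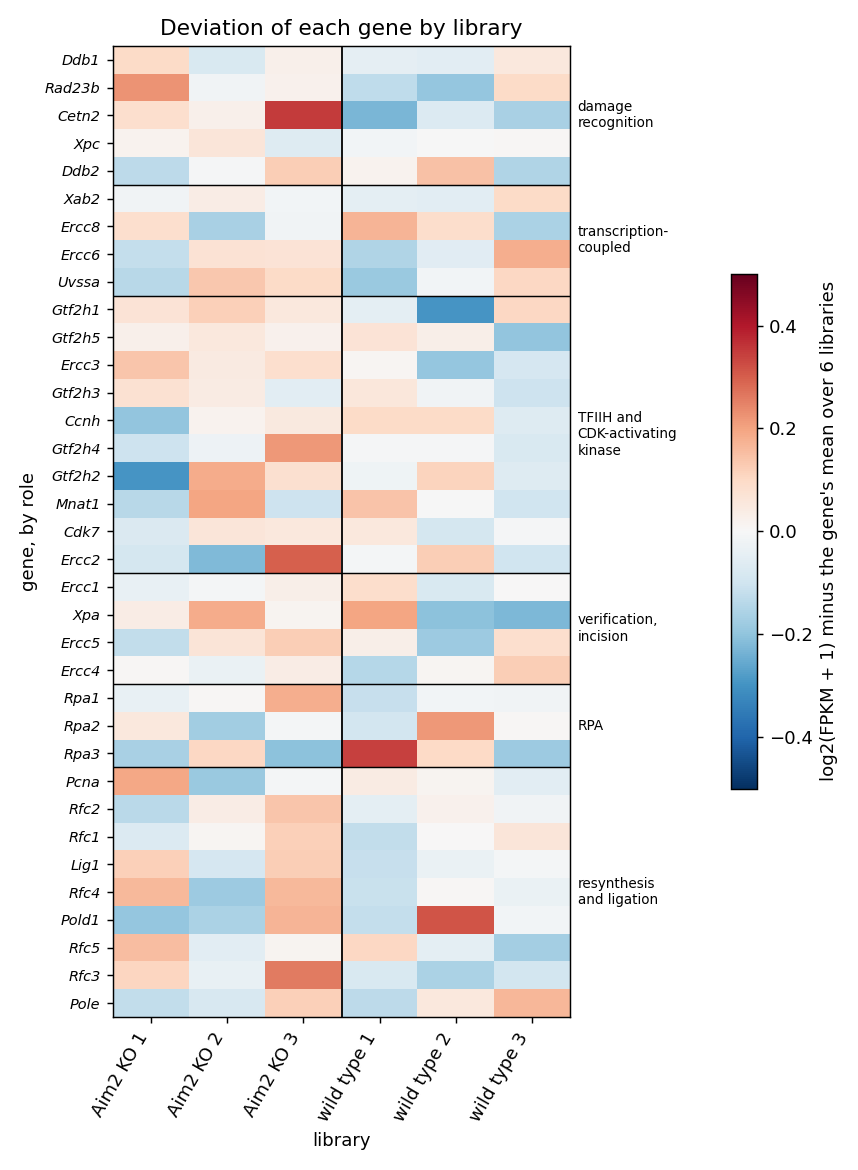
Deviation of each gene (rows, by role) in each library (columns, Aim2 KO left of the line) from its mean over the 6 libraries, in log2(FPKM + 1) units, red above and blue below the mean. No role forms a block of one colour across 3 libraries of a genotype, and the deepest colours are single cells such as Cetn2 in Aim2 KO replicate 3 (0.35) and Rpa3 in wild type replicate 1 (0.34).

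Other genes of the pathway also showed no called difference. Of 24 further genes (such as the other polymerase subunits, Cul4a, Mms19, Xrcc1 and Elof1), all 24 were tested and 0 passed in either direction, by limma or by voom on the recovered reads, with 0 at an unadjusted p under 0.05 in limma and 0 in voom. Their log2 differences ran from -0.13 to 0.24 with a median of 0.038. Lig3, which seals the patch in resting cells, had 5.17, 5.86 and 6.12 FPKM in the Aim2 KO libraries, against 4.53, 4.76 and 5.39 FPKM in the wild type libraries, with wild type replicate 3 inside the Aim2 KO range. Pold4, an accessory subunit of polymerase delta, had 17.7, 19.4 and 17.5 FPKM in the Aim2 KO libraries, against 16.9, 18.1 and 11.7 FPKM in the wild type libraries, and the log2 difference of 0.24 (interval -0.14 to 0.61) went with 1 low wild type library, replicate 3.

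The other routes of DNA repair are given for scale. In homologous recombination and the Fanconi pathway 17 of 28 listed genes were tested, 0 passed in limma or voom (1 at an unadjusted p under 0.05 in each) and the median log2 difference was 0.071. Rbbp8, which encodes the end-resection factor CtIP, had 6.44, 6.24 and 6.12 FPKM in the Aim2 KO libraries, against 5.63, 4.50 and 5.12 FPKM in the wild type libraries, with groups that did not overlap (limma unadjusted p = 0.048, adjusted p = 0.9998). In base excision repair 15 of 20 genes were tested, 0 passed and the median was 0.027, and in mismatch repair 8 of 8 were tested, 0 passed and the median was 0.044. Polb, the gap-filling polymerase of base excision repair, had 17.4, 21.6 and 22.2 FPKM in the Aim2 KO libraries, against 24.8, 22.7 and 22.0 FPKM in the wild type libraries, with overlapping groups.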

How the data were processed

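Libraries were grouped by the genotype in the labels. The authors deposited FPKM values, 1 column per library, and no source used here names the aligner, counter, genome build or annotation. Multiplied by gene length and divided by each library's smallest step, 100% of the values above 0 were whole within 0.01 read, which gave the reads. Coordinates are those of the deposited table, and 29 of 35 members have identical ones in GENCODE M21 (GRCm38).

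Log2(FPKM + 1) was tested with limma (version 3.58.1, R 4.3.3; intensity trend, genotype as the only term, two-sided) on 12144 genes averaging 1 FPKM or more, with Benjamini-Hochberg adjustment over all of them and a threshold of 0.05. The same fit was run on simulated libraries with known changes, and the outcome is not used here as support for any result. All members are named, and of other repair lists up to 4 genes with the smallest p could be. Nsdhl, and the count of groups without overlap under other settings, were chosen after seeing the data. Members and lists were chosen with earlier results of these data known. Promoters are RefSeq's on GRCm38.p6. Within each genotype the library names begin alike, and what this beginning stands for and the genotype cannot be told apart.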

Additional observations from a re-analysis of the deposited data

How the results depend on the processing

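Under all 18 alternatives tried (pseudocounts, filters, scalings, limma without a trend, array quality weights, voom on recovered reads, a skeletal muscle covariate, the replicate number as a block, and leaving out each library), 0 of the 35 members passed, and the smallest adjusted p of a member was 0.122 (Cetn2, array quality weights). Of 630 member values 626 stayed within 1 SD of the main one. The sign changed under at least 1 alternative in 22 members, none with a main log2 difference beyond 0.12 in size. The median log2 difference of the members was 0.070 with array quality weights (0.059 for all genes tested) and 0.0062 to 0.052 when a library was left out. Members higher without overlap numbered 1 after median-of-ratios scaling (3.52% of all genes tested), and 3 to 6 when a library was left out (7.51% to 17.7% of all genes tested). Members lower without overlap numbered 0 to 2 when a library was left out (3.77% to 5.21% of all genes tested): Mnat1 without Aim2 KO replicate 2, Pold1 without Aim2 KO replicate 3, and Ccnh and Ercc8 without wild type replicate 3. The count of all genes past the threshold, 1 in the main test, was 0 with no filter, with a filter at 0.1 FPKM, after rescaling to TPM and with the replicate block, 10 with the muscle covariate, 68 with array quality weights, and 0 to 14 when a library was left out (14 without Aim2 KO replicate 1). The cause was not tested.

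The replicate numbers are shared between the genotypes. Deviations of same-numbered libraries correlated at 0.351, 0.458 and 0.0302 for numbers 1, 2 and 3. Aim2 KO replicates 1 and 2 each correlated best with the wild type library of the same number. Aim2 KO replicate 3 correlated best with wild type replicate 2, at 0.213. Deviations from a group mean sum to 0, so these correlations cannot decide whether the numbers stand for a shared batch or pairing. With the replicate number as a block, 0 members and 0 of the 12144 genes tested passed. Depth limits Ddb2 most, at 53 to 81 reads per library.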
